A study of Mus musculus with 10 samples.

Results

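S100 proteins, annexins and galectins were followed in effector memory (EM) γδ T cells from the spleen as a set of 10 genes, S100a4, S100a6, S100a10, S100a11, S100a13, Anxa1, Anxa2, Anxa5, Lgals1 and Lgals3. The members were chosen by gene name, as calcium-binding and lectin genes linked to T cell memory, and matched by Entrez ID to 10 of the 27179 genes counted. All 10 were among the 12655 genes tested. The cells were sorted from female C57BL/6 mice as CD62L-CD44+ γδ T cells, and each mouse gave 1 RNA-sequencing library made from a low input of RNA. The 5 pre-exposed mice had received 50000 red blood cells infected with Plasmodium chabaudi, a rodent malaria parasite, at 6 to 8 weeks of age. The 5 naïve mice were not infected. Both groups received chloroquine and pyrimethamine, in pre-exposed mice from day 14 of the infection and in naïve mice at the matching time, and cells were collected 12 weeks after this treatment ended. The comparison asked whether a cleared infection left a difference in transcript level in resting EM cells. Mice are numbered by the replicate number of their label.

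S100 proteins are small calcium-binding proteins of the EF-hand type that act inside the cell by binding partners such as myosin and annexins, and some act outside it on receptors. Annexins bind negatively charged phospholipids of membranes when calcium rises, and galectins are lectins that bind galactose-containing glycans on surface proteins such as CD45 and CD43. Several of these genes are known to be more highly transcribed in antigen-experienced than in naïve αβ T cells.

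S100a11, which forms a complex with annexin A1, and S100a13, which takes part in the release of proteins that lack a signal peptide, were higher in pre-exposed than in naïve mice. Their levels were 2.15-fold and 2.30-fold those of naïve mice. The other 8 members, among them all 3 annexins and both galectins, did not pass the test. Of the 10 members, 2 were called higher and 0 lower by edgeR's quasi-likelihood test at a Benjamini-Hochberg adjusted p of 0.05, and 3 had an unadjusted p under 0.05. Over all tested genes 6.3% were called in either direction, 5.12% higher and 1.18% lower, and 24.3% had an unadjusted p under 0.05. Each of the 10 fitted log2 fold changes was above 0, against 51.3% of all tested genes, and their median was 0.45, against 0.018 over all tested genes. With the trend with gene length removed, 7 of the 10 were below 0 and the median was -0.19. In no member did the 5 pre-exposed mice lie apart from the 5 naïve mice, whereas 2.77% of all genes had every pre-exposed mouse above every naïve mouse.

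Library totals ranged between 8747888 and 22542832 counts in pre-exposed mice and between 6587199 and 19993444 counts in naïve mice, and each member had between 338 and 22127 counts in a library. Levels are given as CPM, counts divided by the library's sum over the 12655 tested genes and multiplied by 1e6. This sum is scaled by TMM, a factor per library that brings most genes to the same level. The γδ T cell marker Trdc was high in both groups, at 2399 ± 980 CPM in pre-exposed and 2718 ± 868 CPM in naïve mice, and Cd44, part of the sorting gate, had 246 ± 75.4 and 245 ± 45.01 CPM (SD, n = 5 each). Pre-exposed mouse 5 stood apart, with 24.7% of its counts in its 10 most abundant genes, against 5.61% to 10.2% in the other 9 libraries. Its TMM factor was 0.680, against 0.999 to 1.11 in the other 9 libraries, which raises its CPM values. Gene length also moved with the group. Across the tested genes, Spearman's rho between a gene's length and its deviation from its mean log2 CPM was 0.27 in pre-exposed mouse 1 and -0.54, -0.42, -0.24 and -0.14 in pre-exposed mice 2 to 5, against 0.26 to 0.41 in naïve mice. All 10 members, at 499 to 1724 bases, were shorter than the median tested gene of 2665 bases. In the labels, the descriptions given to pre-exposed mice 2, 3 and 4 lack the index pair that those of the other 7 mice carry, and what this difference records is not given in the sources used here.

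**Figure D1:**
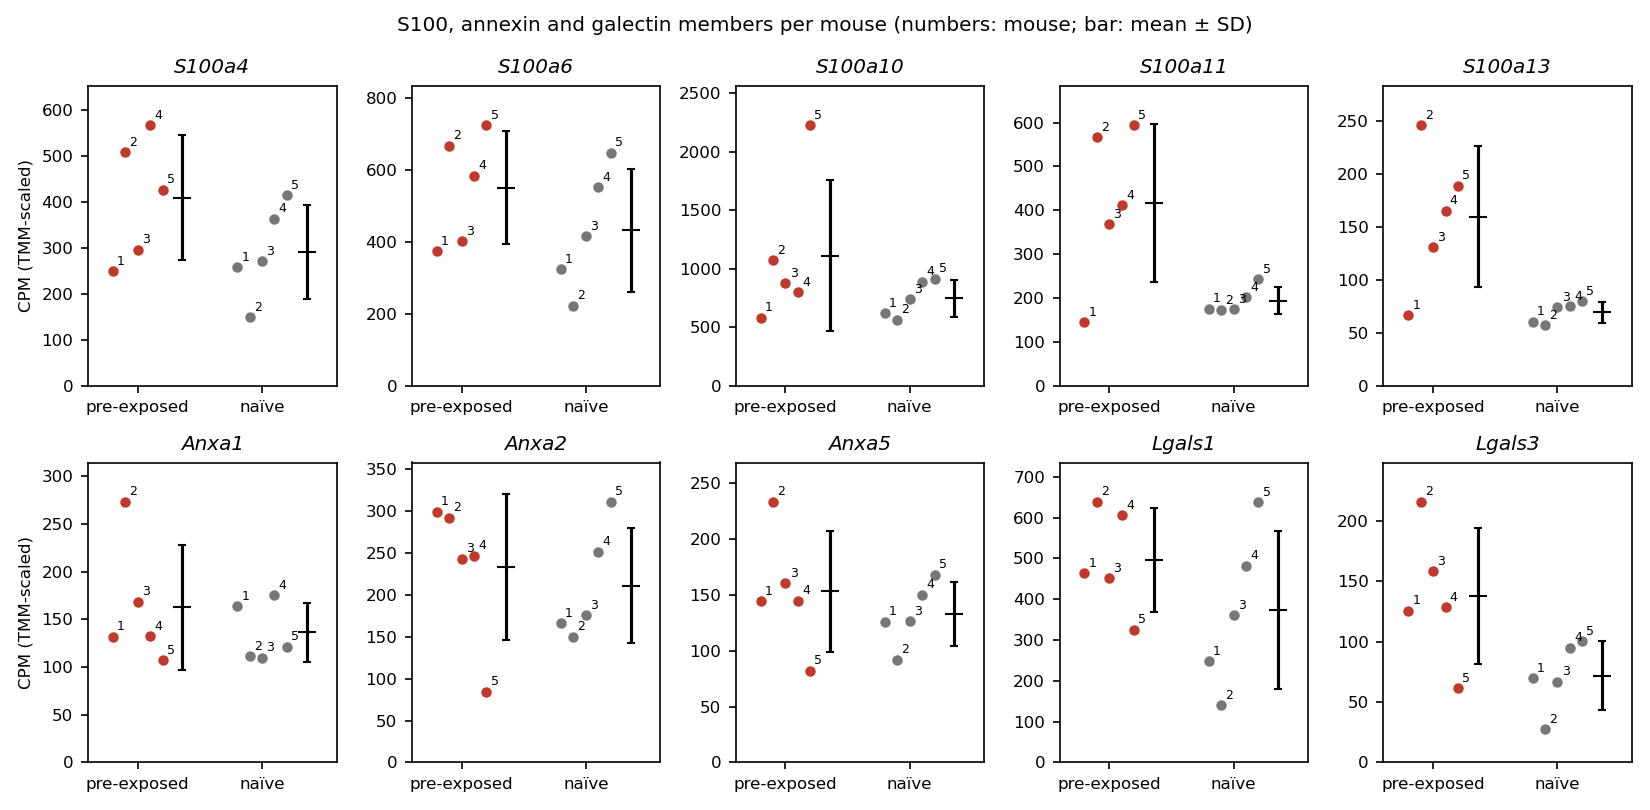
Level of each member in each mouse, in CPM with TMM scaling, with pre-exposed mice in red, naïve mice in grey, the mouse number beside each point, and the mean ± SD of 5 mice as a black bar. For S100a11, S100a13 and Lgals3, 4 of 5 pre-exposed points lie above all naïve points, whereas for the 3 annexins the groups overlap and pre-exposed mouse 5 is the lowest of the 10.

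S100a11 had 145, 567, 369, 412 and 594 CPM in pre-exposed mice 1 to 5, against 176, 172, 175, 203 and 244 CPM in naïve mice 1 to 5. Pre-exposed mice 2 to 5 all lay above every naïve mouse and pre-exposed mouse 1 lay below every naïve mouse, so the groups overlapped. The mean was 417 ± 180 CPM in pre-exposed and 194 ± 30.6 CPM in naïve mice (SD over 5 mice each), and the fitted log2 fold change was 1.11 ± 0.31 (SE). The edgeR adjusted p was 0.0493 and an exact two-sided permutation test of mean log2 CPM gave p = 0.0476, where 5 against 5 mice can go no lower than 0.00794. The naïve mice lay close together, and the spread was in the pre-exposed group. A processed copy, S100a11-ps, was counted separately and held at most 1.36% of the counts of gene and copy in any library, although reads shared by the 2 could have been assigned to either.

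S100a13 was the member with the largest fold change. It had 66.8, 246, 131, 165 and 189 CPM in pre-exposed mice 1 to 5, against 60.7, 57.3, 74.3, 75.3 and 79.9 CPM in naïve mice 1 to 5. As for S100a11, pre-exposed mice 2 to 5 exceeded every naïve mouse, and pre-exposed mouse 1 lay among the naïve mice. Means were 160 ± 66.7 CPM in pre-exposed and 69.5 ± 9.87 CPM in naïve mice, and the log2 fold change was 1.20 ± 0.30 (SE, edgeR adjusted p = 0.0318, exact permutation p = 0.0317). Its annotated span overlaps that of the neighbouring S100a1 by 98 bases in RefSeq, and S100a1 itself, a calcium sensor best known from heart muscle, had 10.2 ± 4.36 CPM in pre-exposed and 4.91 ± 1.74 CPM in naïve mice (log2 fold change 1.06, edgeR adjusted p = 0.112).

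The calls for S100a11 and S100a13 did not hold under several other analyses of the same libraries. When the trend with gene length was removed from each library, the log2 fold change was 0.074 for S100a11 (edgeR adjusted p = 0.907) and 0.37 for S100a13 (edgeR adjusted p = 0.425), 0 of the 10 members were called and 0 had an unadjusted p under 0.05. Both calls were also lost when pre-exposed mouse 2, 3 or 4 or any single naïve mouse was left out. Calls over all genes fell there as well, to between 81 (without pre-exposed mouse 2) and 550 (without pre-exposed mouse 4), against 797 with all mice. S100a13 lay just above the threshold without pre-exposed mouse 3 or 4 (edgeR adjusted p = 0.0512 and 0.0501). Both calls were kept without pre-exposed mouse 1, where 13.4% of all genes were called and 9.48% called higher. They were also kept without pre-exposed mouse 5, where 15.4% were called and 9.69% called higher. Over these 10 refits the adjusted p lay between 0.00507 and 0.156 for S100a11 and between 0.00466 and 0.109 for S100a13, with log2 fold changes of 0.90 to 1.32 and of 0.97 to 1.39. With pre-exposed mice 2 to 4 alone against the 5 naïve mice the log2 fold changes were 1.16 and 1.33 (edgeR adjusted p = 0.00105 and 0.000754), where 29.7% of all genes were called and 15.1% called higher. In 3 members, S100a11, S100a13 and Lgals3, each of these 3 mice lay above every naïve mouse, as in 17.8% of all genes. With pre-exposed mice 1 and 5 alone, which share the naïve mice's style of description, they were 0.99 and 0.93 (edgeR adjusted p = 0.288 and 0.235), where 0.206% of all genes were called higher. Voom with robust TREAT at a fold of 1.5, the kind of test named in the study's methods, called here 0 members and 0.0158% of all genes, each of them higher.

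The windows around the annotated starts of both called genes are shown because these are the members whose transcript level passed the test. They hold 250 bases before and 50 bases from the start, as RefSeq gives them on GRCm38.p6, plus strand, 5′ to 3′. Capitals mark matches, on either strand, to TGANTCA, the recognition sequence of AP-1, a factor induced on T cell activation, to TGTGGT, that of RUNX factors, and to CCACCC, a core bound by KLF factors. The window of S100a11 is chr3:93520246-93520545, with TGAGTCA beginning 136 and 38 bases before the start, and that of S100a13 is chr3:90514185-90514484, with CCACCC beginning 106 bases before its start. The S100a13 window is set on a start at 90514435, downstream of the 90514233 at which the RefSeq span of the gene begins, so that its match lies inside that span.
S100a11: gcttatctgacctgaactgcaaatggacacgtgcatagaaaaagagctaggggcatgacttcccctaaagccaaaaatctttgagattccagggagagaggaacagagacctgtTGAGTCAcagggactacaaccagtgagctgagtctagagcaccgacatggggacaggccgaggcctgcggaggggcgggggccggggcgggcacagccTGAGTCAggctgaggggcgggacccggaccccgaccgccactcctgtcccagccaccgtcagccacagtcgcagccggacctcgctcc
S100a13: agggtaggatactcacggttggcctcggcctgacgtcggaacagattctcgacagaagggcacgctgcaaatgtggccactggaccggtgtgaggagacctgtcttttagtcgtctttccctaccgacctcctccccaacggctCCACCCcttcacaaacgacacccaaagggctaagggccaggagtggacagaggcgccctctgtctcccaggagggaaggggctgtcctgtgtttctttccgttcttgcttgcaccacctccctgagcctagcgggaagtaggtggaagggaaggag
Windows were given for 8 members, all but S100a10 and Lgals1. Of these 8, 2 held TGANTCA (S100a11 and Anxa2), 1 held TGTGGT (S100a6) and 3 held CCACCC (S100a4, S100a13 and Anxa2). Over the 32851 promoters of the table the shares were 7.81%, 16.8% and 31.5%.

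S100a4, S100a6, S100a10, S100a11 and S100a13 all lie on mouse chromosome 3 (mm10, spans from RefSeq), as do most mouse S100 genes. S100a13 (90514233 to 90524581), S100a4 (90603770 to 90606045) and S100a6 (90612894 to 90614414) lie within 100.2 kb, and S100a11 (93520496 to 93526288) and S100a10 (93555117 to 93564645) lie 2.91 Mb further on, 28.8 kb apart. Each of these neighbourhoods held 1 called member beside members that were not called. The same chromosome carries Anxa5 (36448923 to 36475887), far from both. Anxa1 lies on chromosome 19 (20373434 to 20390671), Anxa2 on chromosome 9 (69453683 to 69491792), Lgals1 on chromosome 15 (78926725 to 78930465) and Lgals3 on chromosome 14 (47373860 to 47386167).

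S100a4 encodes a protein that binds nonmuscle myosin and is linked to cell motility. It had 249, 507, 296, 566 and 427 CPM in pre-exposed mice 1 to 5, against 257, 149, 270, 363 and 415 CPM in naïve mice 1 to 5. Pre-exposed mice 2, 4 and 5 lay above every naïve mouse and the others among them. Means were 409 ± 135 CPM in pre-exposed and 291 ± 103 CPM in naïve mice, and the log2 fold change of 0.49 ± 0.30 (SE) did not pass the test (edgeR adjusted p = 0.331). Myh9, the heavy chain of nonmuscle myosin IIA that S100A4 binds, had 115 ± 49.5 CPM in pre-exposed and 178 ± 40.9 CPM in naïve mice (edgeR adjusted p = 0.199). A predicted gene on the same strand shares 302 exonic bases with S100a4 in GENCODE M21. The authors counted on the NCBI annotation built into Subread, and whether that annotation holds the predicted gene was not checked. Only if it does may some S100a4 reads have been left uncounted or assigned to either.

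S100a6, or calcyclin, had 375, 667, 403, 584 and 724 CPM in pre-exposed mice 1 to 5, against 323, 223, 416, 552 and 647 CPM in naïve mice 1 to 5. The groups covered much the same range, and only pre-exposed mice 2 and 5 exceeded every naïve mouse. The log2 fold change was 0.35 ± 0.30 (SE, edgeR adjusted p = 0.499). Cacybp, which encodes the protein named for binding calcyclin, had 310 ± 155 CPM in pre-exposed and 236 ± 43.5 CPM in naïve mice and was not called (edgeR adjusted p = 0.440).

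S100a10, the partner of annexin A2 in a membrane-bound complex, was the most abundant member. It had 583, 1077, 879, 800 and 2229 CPM in pre-exposed mice 1 to 5, against 619, 567, 743, 892 and 917 CPM in naïve mice 1 to 5. Pre-exposed mouse 5 held the highest level by far, and pre-exposed mice 1, 3 and 4 lay within the naïve range. Means were 1113 ± 648 CPM in pre-exposed and 748 ± 157 CPM in naïve mice, with a log2 fold change of 0.57 ± 0.32 (SE, edgeR adjusted p = 0.291) that was 0.12 without pre-exposed mouse 5 (edgeR adjusted p = 0.729).

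None of the 3 annexins was called. Anxa1, whose product is induced by glucocorticoids and signals through formyl peptide receptors, had 132, 274, 169, 133 and 107 CPM in pre-exposed mice 1 to 5, against 164, 112, 110, 175 and 121 CPM in naïve mice 1 to 5. The groups overlapped, with the highest and the lowest level both in pre-exposed mice. The log2 fold change was 0.26 ± 0.27 (SE, edgeR adjusted p = 0.596).

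Anxa2 had 299, 292, 243, 247 and 84.5 CPM in pre-exposed mice 1 to 5, against 166, 150, 176, 251.5 and 311 CPM in naïve mice 1 to 5. Pre-exposed mouse 5, in which the partner S100a10 was highest, had the lowest Anxa2 level, and the other 4 pre-exposed mice lay between 243 and 299 CPM. Means were 233 ± 86.9 CPM in pre-exposed and 211 ± 68.3 CPM in naïve mice, with a log2 fold change of 0.15 ± 0.32 (SE, edgeR adjusted p = 0.814), and of 0.33 without that mouse (edgeR adjusted p = 0.342). Gm16144, an antisense transcript in GENCODE M21, shares 98 exonic bases with Anxa2. Whether the annotation used for counting holds it was not checked, and whether the counting used strand is not given in the sources used here.

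Anxa5, the phosphatidylserine-binding annexin used to stain dying cells, had 144, 234, 161, 145 and 82.3 CPM in pre-exposed mice 1 to 5, against 126, 92.1, 127, 150 and 168 CPM in naïve mice 1 to 5. Again pre-exposed mouse 2 was the highest and pre-exposed mouse 5 the lowest. The log2 fold change was 0.21 ± 0.27 (SE, edgeR adjusted p = 0.672). With pre-exposed mice 1 and 5 alone the log2 fold changes of Anxa1, Anxa2 and Anxa5 were -0.14, -0.086 and -0.17, and with pre-exposed mice 2 to 4 alone 0.45, 0.25 and 0.39, and the 3 annexins were called in neither fit.

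Lgals3 encodes galectin-3, a lectin abundant in macrophages that in T cells binds glycans built by the branching enzyme Mgat5. It had 126, 216, 158, 128 and 61.4 CPM in pre-exposed mice 1 to 5, against 69.5, 27.6, 66.9, 94.9 and 100.4 CPM in naïve mice 1 to 5. Pre-exposed mice 1 to 4 exceeded every naïve mouse, and pre-exposed mouse 5 lay within the naïve range, which is a different exception from the pre-exposed mouse 1 of S100a11 and S100a13. Means were 138 ± 56.1 CPM in pre-exposed and 71.8 ± 28.9 CPM in naïve mice. The log2 fold change of 0.95 ± 0.36 (SE) did not pass the test (edgeR adjusted p = 0.117, exact permutation p = 0.0556). Without pre-exposed mouse 5 it was 1.11 (edgeR adjusted p = 0.0284), and with pre-exposed mice 2 to 4 alone 1.19 (edgeR adjusted p = 0.0122). With the length trend removed it was 0.55 (edgeR adjusted p = 0.396).

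Markers of myeloid cells differed between the groups and are given beside Lgals3. Lyz2, the lysozyme of macrophages and neutrophils, had 778, 1250, 536, 244 and 26.9 CPM in pre-exposed mice 1 to 5, against 39.9, 29.6, 82.7, 141 and 84.0 CPM in naïve mice 1 to 5. It was high in the same 4 pre-exposed mice in which Lgals3 was above the naïve range, and low in pre-exposed mouse 5, but not all markers did the same. Of the 10 monocyte, macrophage and dendritic cell markers called higher, all 10 were above every naïve mouse in each of pre-exposed mice 1 to 4. These 10 were picked by the test on these same mice, which itself favours levels above the naïve mice, and the tested markers not called are left out of this count. In pre-exposed mouse 5, 5 of them were above every naïve mouse (Adgre1 at 14.4 CPM against at most 3.08 CPM in naïve mice, Ms4a6c at 63.8 against at most 53.7, Flt3 at 6.00 against at most 2.83, Clec9a at 1.45 against at most 1.16, and Clec4n at 1.64 against 0), 4 were within the naïve range and Lyz2 was below it. Of 12 monocyte and macrophage markers 9 were tested and 6 were called higher (Lyz2, Csf1r, Adgre1, Cd68, Ms4a6c and Clec4n), and the list's summed level was 487 to 2082 CPM in pre-exposed and 525 to 1153 CPM in naïve mice. Most of the naïve sum was Ccr2, a chemokine receptor that γδ T cells also carry (420 ± 118 CPM in pre-exposed and 758 ± 235 CPM in naïve mice). Fcgr1 and Clec4n were at 0 in all naïve mice, and Cd14, Fcgr1, Itgam and Cd300e were among those at 0 in pre-exposed mouse 5. Of 8 dendritic cell markers 7 were tested and 4 were called higher (Clec9a, Cd209a, Flt3 and Siglech), with sums of 605, 591, 280, 239 and 67.6 CPM in pre-exposed mice 1 to 5, against 57.3 to 90.02 CPM in naïve mice. These calls are edgeR's, which called 5.12% of all tested genes higher. DESeq2 called 6 monocyte and macrophage and 4 dendritic cell markers in either direction, voom and eBayes 3 and 1, and TREAT 1 and 0. The part of these markers in the levels of Lgals3 and of the other members was not tested. A bulk library cannot tell more cells of a type from more RNA per cell.

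S100a11 and S100a13 are set beside the same markers by mouse. In pre-exposed mouse 5, S100a11 was at 594 CPM and S100a13 at 189 CPM, both above every naïve mouse, with 5 of the 10 called myeloid markers also above every naïve mouse and the other 5 not. In pre-exposed mouse 1, with all 10 of these markers above every naïve mouse, S100a11 was at 145 CPM and S100a13 at 66.8 CPM. Spearman's rho with gene length was 0.27 in that mouse, against -0.54, -0.42, -0.24 and -0.14 in pre-exposed mice 2 to 5. The part of the markers and of gene length in these levels was not tested.

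**Figure D2:**
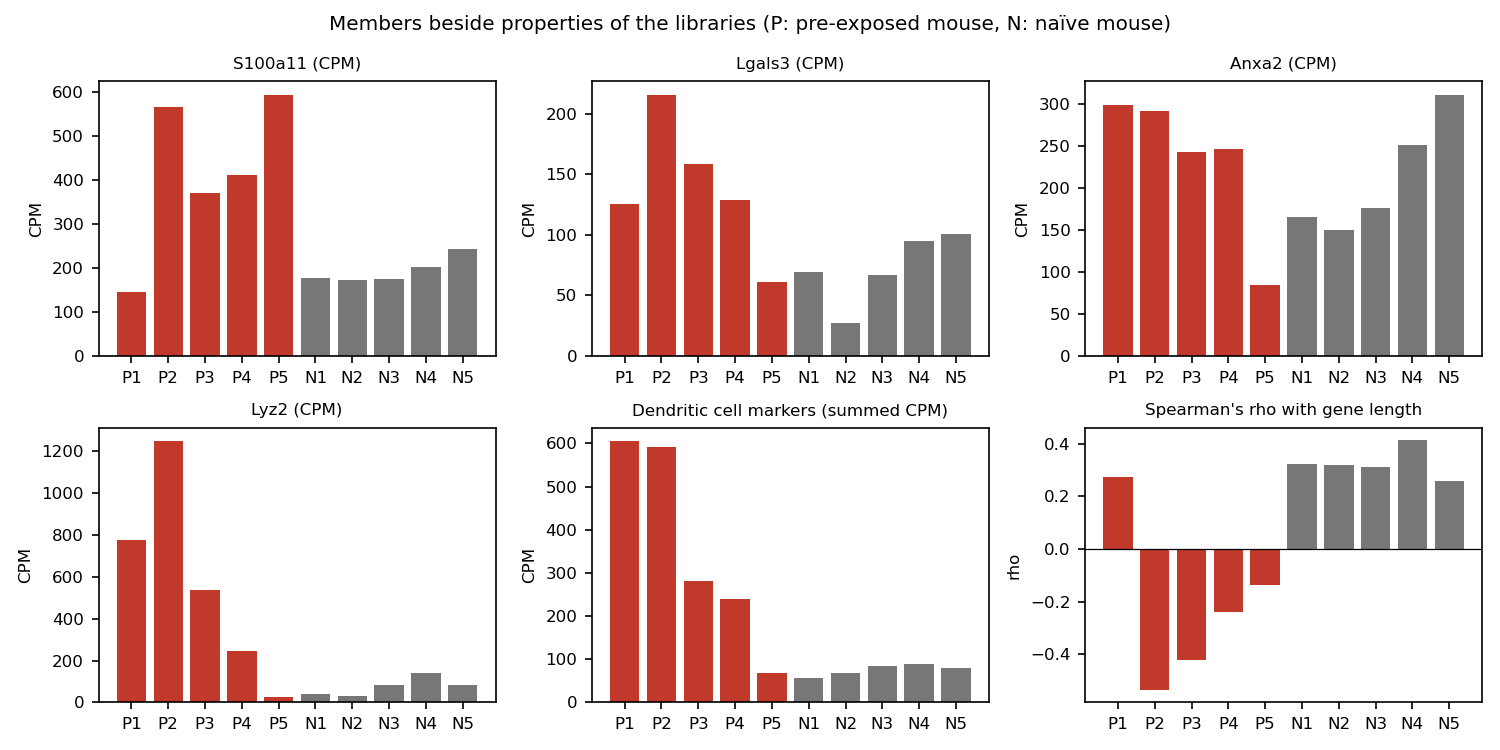
S100a11, Lgals3 and Anxa2 in each library, in CPM, beside Lyz2, the summed dendritic cell markers and Spearman's rho of each library with gene length, with pre-exposed mice (P1 to P5) in red and naïve mice (N1 to N5) in grey. S100a11 is low in P1, where rho is 0.27 as in the naïve mice, and Lgals3 and Lyz2 are low in P5.

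Lgals1 encodes galectin-1, which binds CD45, CD43 and CD7 and is known to restrain T cells. It had 464, 639, 451, 606 and 325 CPM in pre-exposed mice 1 to 5, against 248, 141, 361, 482 and 637 CPM in naïve mice 1 to 5. The lowest level was in naïve mouse 2, and the highest levels of the 2 groups differed by little. Means were 497 ± 127 CPM in pre-exposed and 374 ± 194 CPM in naïve mice, with a log2 fold change of 0.41 ± 0.34 (SE, edgeR adjusted p = 0.487).

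**Figure D3:**
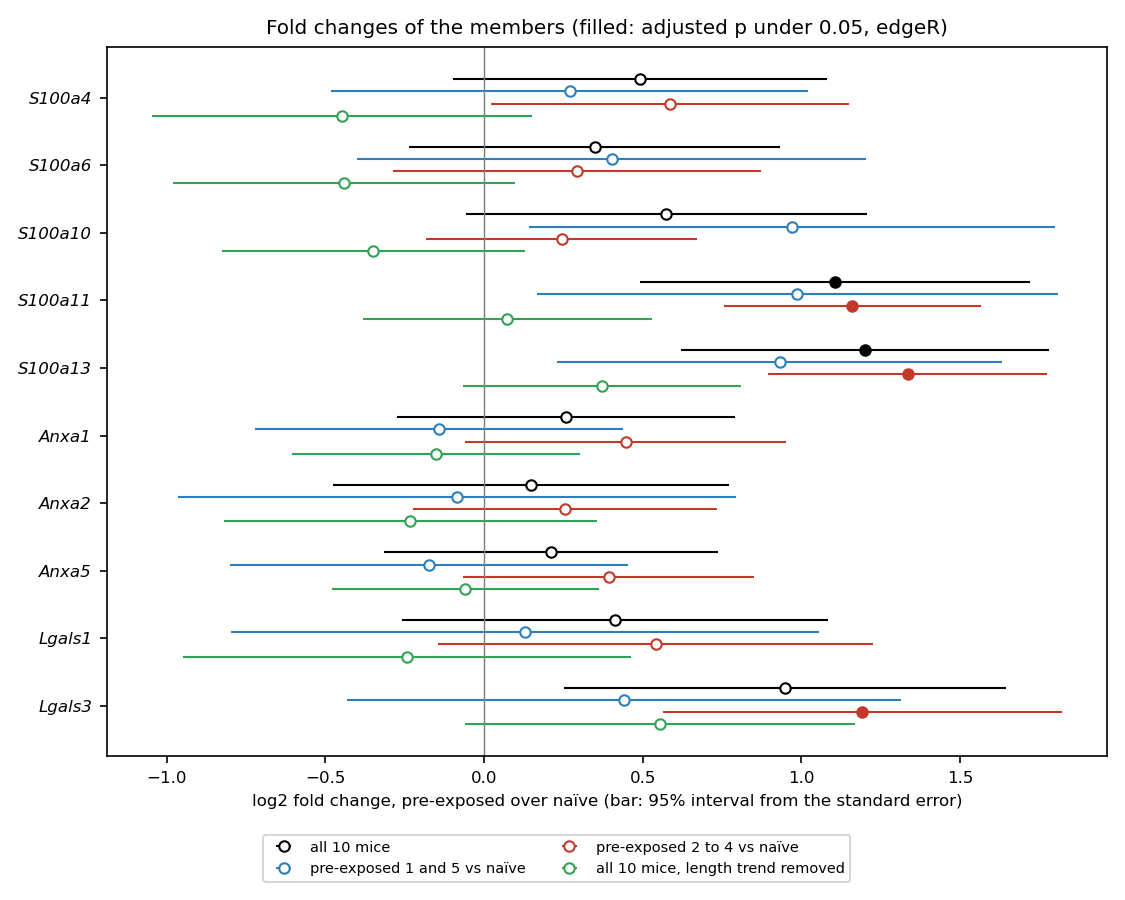
Log2 fold change of each member, pre-exposed over naïve, with bars of 95% intervals from the standard error, from all 10 mice (black), from pre-exposed mice 1 and 5 (blue) or 2 to 4 (red) against the 5 naïve mice, and from all 10 mice with the trend with gene length removed (green). Filled points have an edgeR adjusted p under 0.05, which holds for S100a11 and S100a13 from all 10 mice and for these and Lgals3 from pre-exposed mice 2 to 4, and with the length trend removed 7 of 10 points are below 0.

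With the trend with gene length removed, the log2 fold change of S100a4 was -0.45, of S100a6 -0.44, of S100a10 -0.35, of Lgals1 -0.24, of Anxa2 -0.23, of Anxa1 -0.15 and of Anxa5 -0.059, and the members' median was -0.19, against -0.010 over all tested genes. No member was called in that fit, in which 1.73% of all genes were called in either direction and 1.39% called higher. The direction of these 7 members, each above 0 without the offset, therefore depended on how gene length was treated.

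The members did not share 1 order of the mice. Pre-exposed mouse 2 had the highest level of the 10 mice for 5 members (S100a13, Anxa1, Anxa5, Lgals1 and Lgals3) and exceeded every naïve mouse for 9, all but Anxa2. Pre-exposed mouse 5 was the highest for S100a6, S100a10 and S100a11 and the lowest for all 3 annexins. As a share of all counts of the library, without TMM scaling, S100a6 was highest in naïve mouse 5 (0.0680%, against 0.0456% in pre-exposed mouse 5). On the same measure S100a11 was highest in pre-exposed mouse 2 (0.0516%, against 0.0374% in pre-exposed mouse 5). S100a10 stayed highest and the 3 annexins lowest in pre-exposed mouse 5. In the naïve group, mouse 2 was the lowest of the 10 mice for 6 members. The sum of the 5 S100 members was 1420, 3063, 2078, 2528 and 4163 CPM in pre-exposed mice 1 to 5, against 1437, 1168, 1678, 2086 and 2303 CPM in naïve mice 1 to 5. That of the 3 annexin members was 575, 799, 573, 524 and 274 CPM in pre-exposed mice 1 to 5, against 456, 353.8, 413, 577 and 601 CPM in naïve mice 1 to 5. In TMM-scaled CPM, S100 and annexin sums thus had their extremes in the same library, pre-exposed mouse 5, in opposite directions. For the S100 sum this depended on the scaling.

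Within the naïve group, mice 4 and 5 lay above the naïve mean for 10 and 9 members, whereas mice 1, 2 and 3 did so for 1, 0 and 1. Pearson's r of each member with the mean standardised profile of the members, of which it is itself a part, over the 10 libraries was 0.90 for S100a4, 0.89 for Lgals1, 0.89 for Lgals3, 0.84 for S100a6 and 0.80 for S100a13. It was lower for Anxa5 (0.73), S100a11 (0.73), Anxa1 (0.64), S100a10 (0.50) and Anxa2 (0.46). These libraries share the 2 groups, their depth and their length trends, so the values describe these 10 libraries. Of the other tested genes, those most like the members' mean profile were AI413582 (r = 0.96), Ubb-ps (0.93), Fis1 (0.93), Gpx1 (0.93) and Ubb (0.92), with lengths of 637 to 1165 bases, and edgeR called 0 of these 5.

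Levels were compared between genes per length, as CPM per 1000 bases of the gene (RPKM). S100a10 came first in both groups, at 1713 ± 997 RPKM in pre-exposed and 1150 ± 242 RPKM in naïve mice, and exceeded the next gene within each of the 10 mice. In pre-exposed mice S100a11, S100a4 and S100a6 followed at 828 ± 358, 820 ± 271 and 766 ± 217 RPKM, closer together than their spread, and Lgals1 was at 621 ± 159 RPKM. In naïve mice the order was S100a6 (601 ± 238 RPKM), S100a4 (583 ± 206 RPKM), Lgals1 (467 ± 243 RPKM) and S100a11 (385 ± 60.7 RPKM). S100a11 thus took rank 2 in pre-exposed and rank 5 in naïve mice, and in both orders its range overlapped that of the gene above it. Within each of the 10 mice, these 5 leading members all exceeded the other 5. The remaining 5 members were at 88.8 to 223 RPKM in pre-exposed and at 51.1 to 153 RPKM in naïve mice, with Lgals3 last in naïve mice and Anxa5 last in pre-exposed mice.

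**Figure D4:**
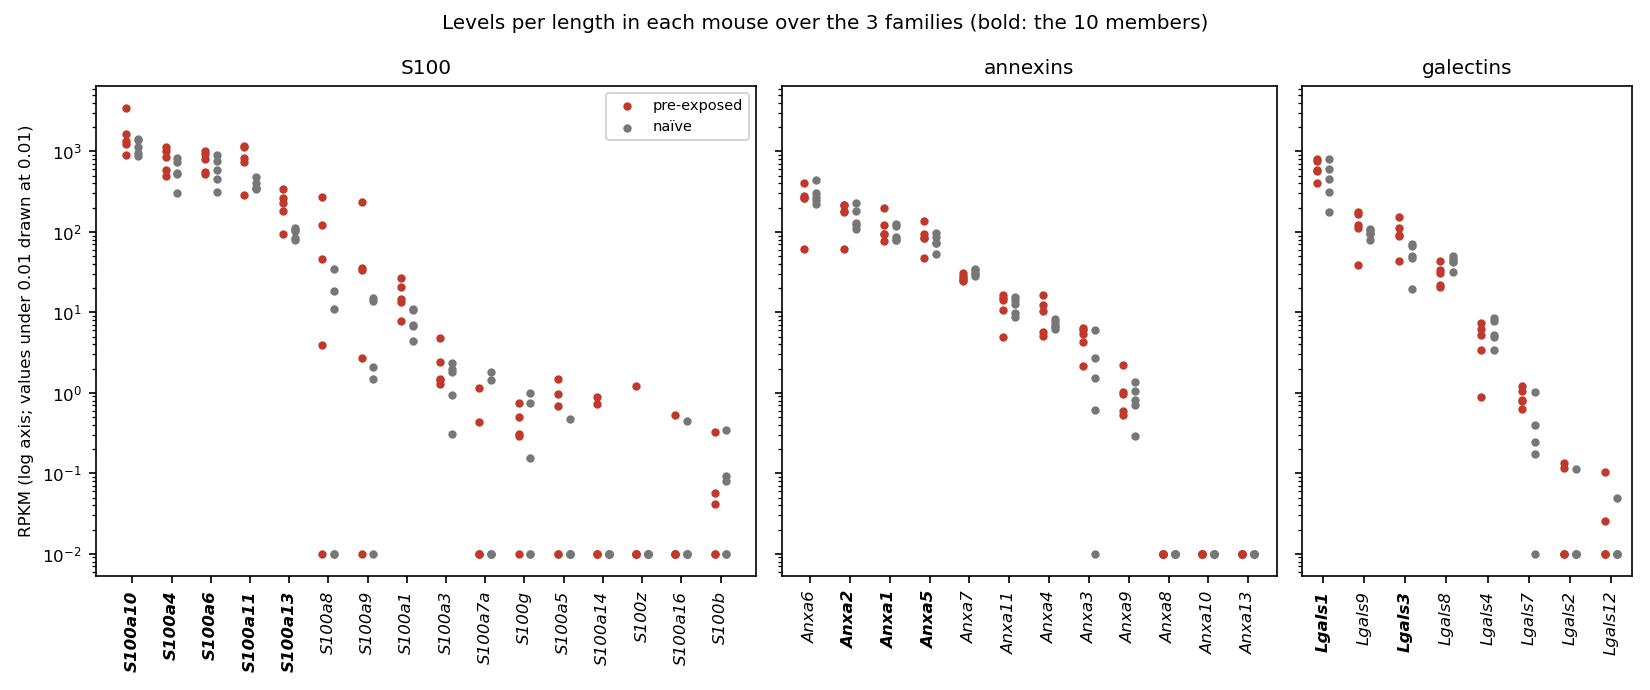
Level per length (RPKM, log axis) of the 10 members (bold) and of the other listed genes of the 3 families in each mouse, with pre-exposed mice in red on the left and naïve mice in grey on the right of each pair. By the mean of all 10 mice the members lead the S100 panel and Anxa6 leads the annexins, although single mice depart from this order, and S100a8 and S100a9 span the widest range among pre-exposed mice.

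Other genes of the 3 families gave 0 calls by edgeR and 0 by DESeq2, and 3 of them, all S100 genes, had an unadjusted edgeR p under 0.05. With limma's voom and quality weights S100a1 and Lgals8 were called. Of 11 other S100 genes 4 were tested, S100a1, S100a3, S100a8 and S100a9, and the last 2, which encode the calprotectin of neutrophils, had 47.3, 107, 18.1, 1.53 and 0 CPM (S100a8) and 17.1, 114, 16.3, 1.32 and 0 CPM (S100a9) in pre-exposed mice 1 to 5, against 0 to 13.5 CPM and 0 to 7.32 CPM in naïve mice. They were highest in pre-exposed mouse 2 and at 0 counts in pre-exposed mouse 5, where 3 counts would be 0.545 CPM (edgeR adjusted p = 0.136 and 0.0963). Only 3 of the 10 neutrophil markers were tested, S100a8, S100a9 and Csf3r. Csf3r was called by edgeR (4.50 ± 3.49 CPM in pre-exposed and 0.614 ± 0.721 CPM in naïve mice), but not by DESeq2 or by voom and eBayes. The markers left out by the filter reached up to 109 CPM in pre-exposed mouse 2, against at most 4.02 CPM in naïve mice. The whole list summed to 1.09 to 401 CPM in pre-exposed and 0.465 to 29.7 CPM in naïve mice.

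Anxa6 was the most abundant other annexin, at 675 ± 323 CPM in pre-exposed and 790 ± 223 CPM in naïve mice, and its level in pre-exposed mouse 5 was 163 CPM, against 703 to 1063 CPM in the other 4 pre-exposed mice. This is the mouse in which the 3 annexin members were also lowest. Of 9 other annexins 6 were tested and 3, Anxa8, Anxa10 and Anxa13, had 0 counts in all 10 libraries. The smallest p among them were those of Anxa3 (7.74 ± 2.74 CPM in pre-exposed and 3.51 ± 3.86 CPM in naïve mice, edgeR adjusted p = 0.301) and Anxa4 (20.1 ± 9.62 and 14.2 ± 1.65 CPM, edgeR adjusted p = 0.352). Of the other galectins, Lgals9, a ligand of TIM-3, had 196 ± 87.2 CPM in pre-exposed and 153 ± 17.7 CPM in naïve mice, and Lgals8 had 89.7 ± 27.4 CPM in pre-exposed and 127 ± 20.1 CPM in naïve mice (edgeR adjusted p = 0.517 and 0.223).

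Partners, receptors and ligands of the members were examined as a list of 21 genes, of which 17 were tested and 0 were called by edgeR or DESeq2, with 5 at an unadjusted edgeR p under 0.05. With voom and quality weights 6 were called. Plaur, the urokinase receptor of the surface system to which annexin A2 and S100a10 also belong, had the smallest p. It had 16.2, 16.7, 6.05, 5.13 and 0 CPM in pre-exposed mice 1 to 5, against 0.661, 0.517, 1.75, 2.13 and 4.05 CPM in naïve mice 1 to 5 (edgeR adjusted p = 0.0556). Pre-exposed mouse 5 was again the exception. Lag3, an inhibitory receptor that galectin-3 binds, was the only gene named from this list whose groups did not overlap, at 3.42 to 7.56 CPM in pre-exposed and 1.54 to 3.16 CPM in naïve mice, and was not called (edgeR adjusted p = 0.111). Ahnak, a large scaffold protein that binds the complex of S100a10 and annexin A2, had 227 ± 163 CPM in pre-exposed and 413 ± 80.4 CPM in naïve mice (edgeR adjusted p = 0.199). Havcr2, which encodes TIM-3, had 13.5 ± 8.28 and 4.74 ± 4.02 CPM in the pre-exposed and naïve mice (edgeR adjusted p = 0.183). The formyl peptide receptor genes Fpr1 and Fpr2 were too low to be tested, with at most 3.99 CPM in any library.

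Of 21 cytoskeletal and surface genes of memory T cells, all tested, 1 was called higher and 1 lower. Ly6c2, a surface antigen of memory T cells that monocytes also carry, had 653, 581, 494, 286 and 475 CPM in pre-exposed mice 1 to 5, against 204, 196, 157, 150 and 154 CPM in naïve mice 1 to 5. Every pre-exposed mouse thus exceeded every naïve mouse (log2 fold change 1.53, edgeR adjusted p = 0.00818). The part of the myeloid markers in the level of Ly6c2 was not tested. S1pr1, the receptor that guides lymphocytes out of tissue, fell to 221 ± 63.5 CPM in pre-exposed mice, against 463 ± 99.1 CPM in naïve mice, again without overlap (log2 fold change -1.07, edgeR adjusted p = 0.0307). Ly6c2 has 801 bases and S1pr1 3029 bases, and the part of gene length in their levels was not tested. DESeq2 called both, voom and eBayes called Ly6c2 but not S1pr1, and TREAT called neither. In both genes pre-exposed mouse 1 lay on the side of the other pre-exposed mice, unlike in S100a11 and S100a13. Tmsb10, an actin-binding gene of 943 bases, had 416 ± 185 CPM in pre-exposed and 214 ± 42.6 CPM in naïve mice (log2 fold change 0.96, edgeR adjusted p = 0.0656).

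The remaining marker lists moved with the group in part. Of the markers tested, 4 of 5 erythroid, 2 of 3 B cell, 2 of 6 NK cell, 1 of 7 αβ T cell and 1 of 8 γδ T cell markers were called higher by edgeR, and 0 were called lower. Over all tested genes edgeR called 5.12% higher. In the same order, DESeq2 called 5, 1, 2, 3 and 2 markers in either direction. Voom and eBayes called 1, 0, 0, 1 and 0, and TREAT called 0 in each list. Summed levels were 325 to 2040 CPM in pre-exposed and 79.6 to 459 CPM in naïve mice for erythroid markers, 43.2 to 133 and 42.4 to 98.7 CPM for B cell markers, and 949 to 4398 and 709 to 1773 CPM for NK cell markers. For αβ T cell markers they were 1607 to 3305 CPM in pre-exposed and 1668 to 2009 CPM in naïve mice. Pre-exposed mouse 1 had the lowest sum of the 10, with Trbc1 and Trbc2 also lowest there, at 460 and 627 CPM. Trac, Cd4 and Cd8a in that mouse, at 317, 108 and 43.5 CPM, were above every naïve mouse. The rest of the list lay within the naïve range. For γδ T cell markers the sums were 4388 to 14837 CPM in pre-exposed and 6663 to 11276 CPM in naïve mice. Pre-exposed mouse 1 was again the lowest. Among the genes called were Hba-a1, Hba-a2 and Hbb-bs, Ms4a1 and Cd79a, Klra8 and Gzma, Trac, and Cd3d. Cd3d, of the γδ T cell list, encodes a CD3 chain that is not particular to γδ T cells. Of the 8 genes of that list 4 had a log2 fold change above 0. Trdc was at -0.18 and Sox13 at -1.55 (edgeR adjusted p = 0.767 and 0.0644), and DESeq2 called Sox13. Pax5 and Ebf1, transcription factors that define B cells, were at 0 in all 10 libraries. Immunoglobulin genes, left out of the test, took 4.50%, 6.68%, 1.70%, 0.556% and 0.345% of the counts in pre-exposed mice 1 to 5, against 0.0845% to 0.737% in naïve mice (exact permutation p = 0.0317, 0.135 after Benjamini-Hochberg adjustment over 17 library measures). The part of these markers in the members' levels was not tested.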

How the data were processed

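Effector memory γδ T cells of 5 pre-exposed and 5 naïve mice were profiled, with 1 library per mouse. The authors aligned read pairs to mm10 with Subread and summarised them per Entrez gene with featureCounts, and deposited whole-number counts without normalization. Neither their versions nor the strand setting is given in the sources used here, and the labels and the methods name different library kits. Groups came from the sample labels. Replicates of a group all differed by more than sampling noise, with a smallest chi-square of 22.6 per gene.

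Of 27179 genes, 13534 passed filterByExpr, 767 without a symbol and 112 immunoglobulin genes were left out, as in the study, and 12655 were tested. Symbols (25275 matched) and spans came from RefSeq. The test was edgeR 4.0.16 (quasi-likelihood, robust, legacy FALSE, TMM, no covariates) in R 4.3.3, Benjamini-Hochberg adjusted over all tested genes. Standard errors of the edgeR fits are the absolute log2 fold change over the root of F. Exact permutation tests used log2 CPM with a prior count of 2. Alternatives used limma 3.58.1 and DESeq2 1.42.0, among them voom and TREAT at a fold of 1.5, the kind of test named in the study's methods. Other alternatives covered scaling, filters, the older dispersion method, the replicate number as a block, the description style as a covariate or a split, each library left out, and a length offset, a loess fit (span 0.3) of each library's deviations on log2 length. The main fit and those with the older dispersion method, the length offset, the block, DESeq2, TREAT, eBayes and quality weights were tested on simulated data. The other alternatives were not. Depth limits low genes, since 0 counts allow up to 3 counts at 95% confidence, for counting error only.

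The members and lists were chosen with earlier results of these data known. The rule for named genes took all 10 members, the called genes and up to 3 smallest p of each list, the 5 genes most like the members' mean profile and the leading markers of a list that moved with a member. Other genes named (Cacybp, Ahnak, Myh9, Fpr1, Fpr2, Anxa6, S100a11-ps, Trdc, Cd44, Ccr2, Trbc1, Trbc2 and markers at 0) were chosen after their values were seen. Some listed genes are not reported here by name.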

Additional observations from a re-analysis of the deposited data

Results flagged for a closer look

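Anxa2 in pre-exposed mouse 5 lay far from the other 4 pre-exposed mice, at 84.5 CPM against a nearest value of 243 CPM. This was the only such value among the 20 groups of 5 mice examined (10 members in 2 groups), of which chance flags about 1 in 20. S100a10, the partner of annexin A2, was at its highest level in the same library, 2229 CPM, and that library had 24.7% of its counts in 10 genes. Their part in the Anxa2 level was not tested.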

How the results depend on the processing

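Of the members, 2 were called by edgeR. The count was 2 with DESeq2, 3 with quality weights (Lgals3 added) and 3 with pre-exposed mice 2 to 4 alone. It was 1 (S100a13) with RLE size factors, with the older dispersion method, without the filter and with a minimum of 1 CPM in 5 libraries. It was 0 with voom and eBayes, with TREAT, with the description style as a covariate, with pre-exposed mice 1 and 5 alone and with the length offset. Without any single library it lay between 0 and 3.

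Calls over all genes, 797 in the main analysis, were 1350 with DESeq2, 358 with the older dispersion method, 96 with voom and eBayes, 2 with TREAT, 3571 with quality weights, 40 with the description covariate, 27 with pre-exposed mice 1 and 5, 3903 with mice 2 to 4 and 219 with the length offset, and 81 (without pre-exposed mouse 2) to 1996 (without pre-exposed mouse 5) with each library left out. Of the listed genes outside the members, 23 were called, against 13, 7, 1, 50, 4, 3, 57 and 10 under the same alternatives after DESeq2, and 6 to 46 with a library left out.

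The replicate numbers did not pair the mice (correlations of same-numbered mice between -0.261 and 0.0530). With them as a replicate block 0 members, 55 genes and 6 listed genes were called, and with the block and the length offset 0, 24 and 3.

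S100a11, S100a13 and Lgals3 kept a log2 fold change above 0 in all 24 alternatives. With the length offset S100a4, S100a6, S100a10, Anxa1, Anxa2, Anxa5 and Lgals1 turned to -0.45, -0.44, -0.35, -0.15, -0.23, -0.059 and -0.24, and with the block as well to -0.40, -0.35, -0.36, -0.15, -0.26, -0.062 and -0.11. Anxa1, Anxa2 and Anxa5 turned to -0.19, -0.13 and -0.22 with the description covariate and to -0.14, -0.086 and -0.17 with pre-exposed mice 1 and 5. Without pre-exposed mouse 2, Anxa1 turned to -0.036 and Anxa5 to -0.020, and with any other single library left out they reached up to 0.36 and 0.34. The cause was not tested. TREAT gave 0 members and 882 genes an unadjusted p under 0.05. With 5 mice a group and adjusted p near the threshold, each of the 2 calls held in 2 of 10 refits with 1 mouse left out. Their log2 fold changes in these refits were 0.90 to 1.32 for S100a11 and 0.97 to 1.39 for S100a13.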
